A study of Mus musculus with 2 samples.

Results

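In wounded mouse skin, 470 of 4695 cells were set apart by their level of Lrig1 and Lgr6, a pair of membrane proteins that mark the stem cells of the junctional zone, the stretch of hair follicle between the bulge and the opening to the skin surface. The cells were ranked by the summed level of both transcripts in CPM, the gene's UMIs scaled to the cell's total (a UMI is a molecule counted once), and the top 10% of 4 wound pools together were taken. Cells with 1500 CPM or more of Krt79 plus Defb6, which mark the upper follicle, were left out of the ranking. The members are compared below with the 4225 other ranked cells, called the rest, and with the 202 cells left out by the limit. All cells had at least 5000 gene UMIs, at most 10% mitochondrial UMIs, and at least 20 hashtag UMIs of which at least 70% were of 1 hashtag. These filters kept 5666 cells of the whole series, of which 4897 came from wounds.

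The study compared mice with intact alleles of Phgdh, the first enzyme of serine synthesis (+/+), with mice whose Phgdh alleles were floxed (fl/fl), before wounding and 3 and 5 days after it. All mice, controls included, carried Sox9-CreER and R26-LSL-YFP on a C57B6/J background, so YFP marks cells in which the Sox9 promoter drove Cre and their descendants. The animals' age and the time of Cre induction were not given in the sources used here. Each of the 6 conditions is 1 pool of cells with its own hashtag. The labels describe the cells as pooled from both sexes, but 0 cells of either fl/fl wound pool were called female by Xist and Y-linked transcripts, which goes against that label if it was meant for each pool. Wound cells were sorted as live, YFP positive and high for integrin α6, and as negative for markers of fibroblasts (CD140a), CD117, endothelium (CD31) and leukocytes (CD45). The unwounded cells also had to lack SCA1 and carry CD34 and CD200, so their gate differs from that of the wound cells. With 1 pool per condition there is no replicate, and no test was run. Intervals cover counting error alone, and SDs give the spread over the 4 wound pools, which differ in day and genotype.

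Lrig1 is a transmembrane protein that restrains signalling by the EGF receptor family, and Lgr6 is a receptor for R-spondins, secreted proteins that strengthen WNT signals. Cells that carry these proteins sit above the bulge, the niche of the quiescent hair follicle stem cells marked by Cd34, Krt15 and Lgr5. In resting skin they maintain the junctional zone, the sebaceous gland and the follicle opening, and after wounding their descendants enter the new epidermis. Apoe, a lipid carrier protein, was the other marker named for these cells.

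The condition of each cell was read from its hashtag, a short barcode on an antibody, and the barcodes of the 4 wound pools are shown because every comparison of pools rests on them. Capitals are not used, as each hashtag was read as a whole, and each is written 5′ to 3′.
3 days +/+: gagtctgccagtatc
3 days fl/fl: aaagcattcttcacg
5 days +/+: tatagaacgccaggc
5 days fl/fl: tatgctgccacggta
These hashtags were assigned 1381, 517, 1501 and 1498 cells in that order, before the limit on Krt79 and Defb6.

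The choice itself set the level of both genes. Summed over the members of a pool, Lrig1 (chr6:94604529-94700298, mm10, RefSeq) stood at 353 CPM at 3 days +/+, 319 at 3 days fl/fl, 380 at 5 days +/+ and 311 at 5 days fl/fl. In the rest it stood at 19.1, 17.6, 18.8 and 16.8 CPM in the same order. Lgr6 (chr1:134983300-135105374) stood at 194, 154, 226 and 137 CPM in the members and at 6.25, 6.87, 3.70 and 1.71 CPM in the rest. These values chose the cells and are a description. Near-empty barcodes, which hold free RNA, carried 36.1 CPM of Lrig1 and 13.3 CPM of Lgr6, above the level of the rest for both genes.

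The choice rests on few molecules. The members held a median of 8 UMIs of both genes together (quartiles 5 and 14, range 2 to 100), and 126 of the 470 held at most 5. The last member had 219.841 CPM, from 1 Lrig1 and 3 Lgr6 UMIs among 18195, and the first cell of the rest had 219.822 CPM, from 10 and 5 UMIs among 68237. Members were shallower than the rest, with a median of 18515 gene UMIs against 45818, and the gap held in each pool. Their median mitochondrial share was 5.43% against 4.01%. A cell with few UMIs reaches the limit with fewer Lrig1 and Lgr6 UMIs, and members made up 40.1% of cells with 5000 to 10000 UMIs, 35.8% with 10000 to 20000, 18.8% with 20000 to 30000, 4.01% with 30000 to 50000 and 1.34% from 50000. Values for the 323 members and 884 cells of the rest with 10000 to 30000 UMIs, called the depth window, are therefore given beside the main results. Their medians, 17974 and 21506 UMIs, were still unequal.

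**Figure D1:**
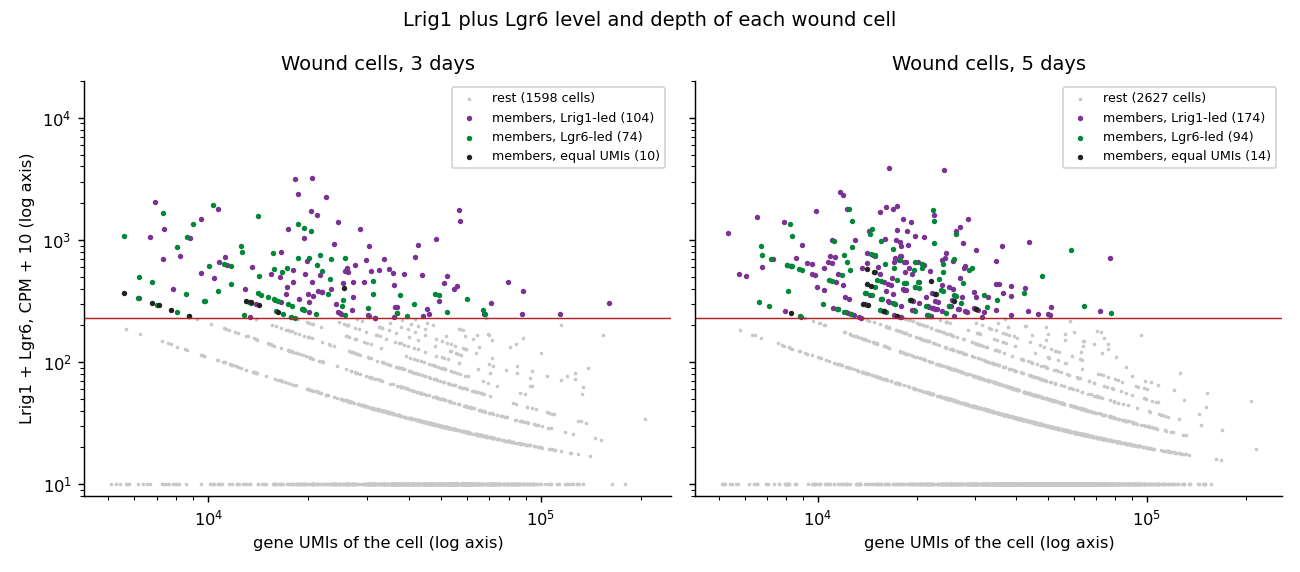
Summed Lrig1 and Lgr6 level of each wound cell (CPM + 10, log axis) against its gene UMIs (log axis), at 3 and 5 days, with both genotypes together. The line marks the limit between members (colored by the gene with more UMIs) and rest (grey). Members lie mainly at the shallow side, where 2 to 5 UMIs summed over both genes suffice to pass the line.

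Whether both genes were high in the same cells was asked by choosing on 1 gene and reading the other. The top 10% by Lrig1 alone held 124, 86.9, 138 and 72.5 CPM of Lgr6 in the order of pools above, against 10.1, 11.6, 8.70 and 2.85 CPM in the other cells. The log2 fold was 3.80 ± 0.74 (SD, n = 4 pools), and 350 of these 470 cells were members. The top 10% by Lgr6 alone held 175, 151, 247 and 221 CPM of Lrig1 against 27.8, 28.0, 28.0 and 20.6, a log2 fold of 2.91 ± 0.45. Both choices gave levels above the other cells in each of the 4 pools. When cells were chosen on a random portion of their UMIs and read in the remaining portion, the log2 fold was 3.98 ± 0.11 for Lrig1, 4.94 ± 0.84 for Lgr6 and 2.84 ± 0.31 for Apoe. Thinned to 5000 UMIs a cell, Lrig1 was detected in 68.2%, 69.8%, 67.2% and 73.1% of members and in 10.1% to 11.0% of the rest. Before thinning the shares were 91.1% to 94.3% in members and 43.6% to 45.4% in the rest. These shares, and the Lrig1 and Lgr6 folds read in the remaining portion, describe cells chosen on those genes and are no test.

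Both genes were detected in 329 of the 470 members. Lgr6 was at 0 in 103 members and Lrig1 at 0 in 38. Lrig1 had more UMIs in 278 members and Lgr6 in 168, and 24 had equal numbers.

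Apoe, which the rule did not use, was high in the members. It stood at 10206, 9227, 11407 and 10039.5 CPM in the members and at 1574, 1364, 1733 and 1052 CPM in the rest. All 4 pools of members were above all 4 pools of the rest, and the log2 fold within a pool was 2.86 ± 0.27 (SD, n = 4 pools). The gene lies at chr7:19696244-19701310. In the depth window the Apoe log2 fold was 1.48 ± 0.29. Gata6, a transcription factor of the junctional zone and sebaceous duct, stood at 31.0, 23.3, 23.2 and 14.1 CPM in members and at 2.40, 1.73, 1.204 and 0.328 CPM in the rest (log2 fold 4.28 ± 0.81, depth window 2.74).

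Other markers of the region were divided. Plet1, a surface protein of the junctional zone, stood at 147, 178, 171 and 184 CPM in members and at 394, 399, 258 and 236 CPM in the rest, lower in members in each pool (log2 fold -0.89 ± 0.49). Free RNA carried 272 CPM of Plet1, within the range of the rest. Prdm1, a transcriptional repressor reported in sebaceous progenitors, stood at 16.6, 42.6, 25.1 and 15.6 CPM in members and at 64.0, 37.1, 37.0 and 32.2 in the rest, higher in members at 3 days fl/fl alone. Cst6, a protease inhibitor of the upper follicle, was lower in members in each pool, with a log2 fold of -2.40 ± 1.1. The upper follicle markers Krt79 and Defb6, whose sum the rule limited in both classes, were higher in members in each pool. Krt79 stood at 162, 120.4, 62.4 and 50.4 CPM in members and at 23.2, 17.1, 16.5 and 9.57 CPM in the rest (2.49 ± 0.43), and Defb6 had a log2 fold of 2.35 ± 1.17. Apoe alone of the 3 measured genes of the junctional list reached 1.5-fold higher in every pool, against 17.0% of all measured genes. The median over those 3 was -0.84. As Plet1 and Prdm1 did not follow Apoe, the cells are called Lrig1 and Lgr6 high wound cells here.

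**Figure D2:**
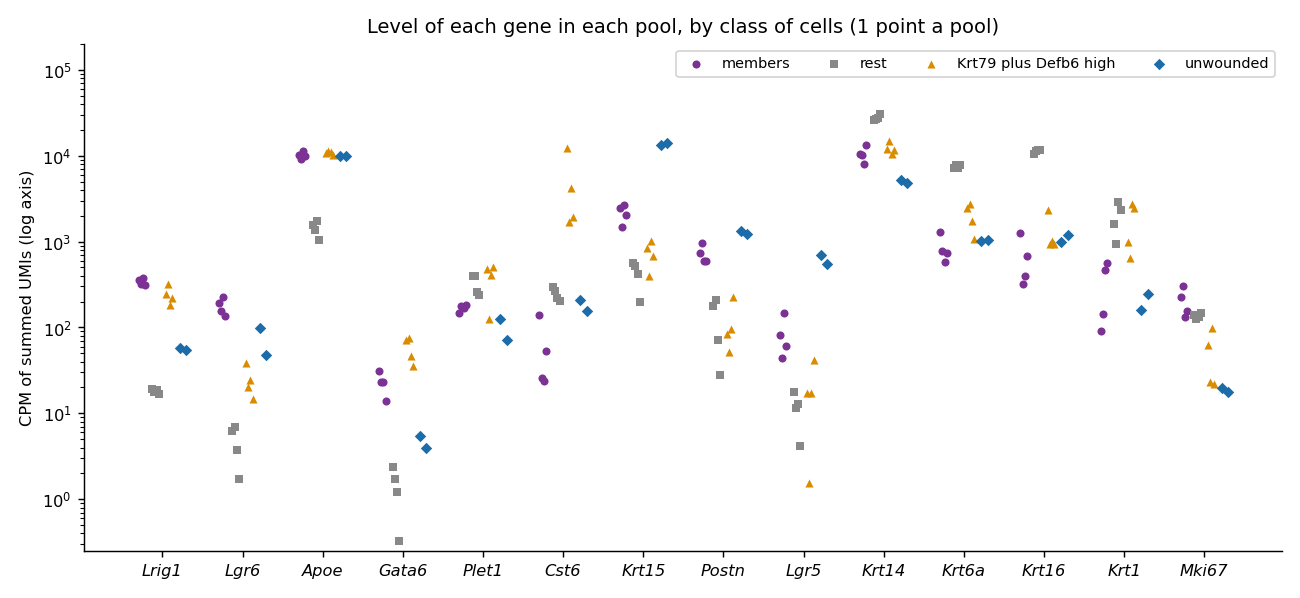
Level of 14 genes (CPM of summed UMIs, log axis) in members, rest, Krt79 plus Defb6 high wound cells and unwounded cells, with 1 point for each pool. The 4 points of the members for Apoe lie between 9227 and 11407 CPM, beside those of the Krt79 plus Defb6 high and unwounded cells and above the rest, whereas Krt6a and Krt16 are lower in members than in the rest in each pool.

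Across the transcriptome, 4354 genes averaged 30 CPM or more over the 8 sums (members and rest of 4 pools). Of these, 739 (17.0%) were at least 1.5-fold higher in members in all 4 pools and 301 (6.91%) at least 1.5-fold lower, and the median log2 fold of all genes was 0.16. Since the members were chosen on values of the same cells, these counts describe the choice and are no test. Scaled by the median of gene ratios within a pool rather than by total UMIs, the counts were 465 and 469. In the depth window they were 161 and 137 and the median was 0.12.

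The 12 highest folds outside the rule were led by Csgalnact1. This enzyme, which starts chondroitin sulfate chains, stood at 89.5, 90.5, 235 and 206 CPM in members and at 7.98, 7.96, 15.0 and 8.30 CPM in the rest (log2 fold 3.90 ± 0.54). Robo2, a receptor of Slit guidance proteins, stood at 559.9, 373, 458 and 508 CPM against 43.9, 36.1, 56.7 and 45.4 (3.38 ± 0.28). Neither gene overlapped between members and rest, but both were named for their large folds, so this is a description. The other 10 highest were H2-Q7 (a class I MHC gene with close paralogs that can share reads), Aldh3a1 (an aldehyde dehydrogenase), the semaphorins Sema6a and Sema3e, Fgfr1 (a fibroblast growth factor receptor), Txnip (which binds thioredoxin), the transcription factors Zbtb16 and Bach2, Smoc2 (a secreted matrix-associated protein) and Kalrn. Their mean log2 folds ran from 3.31 for Sema3e to 3.83 for H2-Q7. All 12 stayed above 0 in the depth window, from 1.21 for Zbtb16 to 2.48 for Sema6a.

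Genes of the bulge were high in the members. Of 15 genes on the bulge list, 8 were measured, and 7 reached 1.5-fold higher in every pool, against 17.0% of all genes. The list's median log2 fold was 2.67. Postn, a matrix protein, stood at 743, 966, 588 and 588 CPM in members and at 177, 211, 71.9 and 28.0 CPM in the rest. Krt15, a keratin of bulge cells, stood at 2433, 1470, 2659 and 2044 CPM against 567, 514, 417 and 198. Lgr5, an R-spondin receptor of the lower bulge, had a log2 fold of 2.88 ± 0.96, Lhx2 and Nfatc1, transcription factors of bulge stem cells, 2.68 ± 0.95 and 2.66 ± 0.63, and Sox9, the gene whose promoter drives the Cre, 1.44 ± 0.28. Krt24 did not reach the fold in every pool (2.67 ± 2.17). The bulge median was 0.76 in the depth window, where Sox9 was at 0.57. Cd34 was below the measuring limit, with 46.3, 27.3, 17.0 and 19.1 CPM in members and 21.7, 22.2, 7.57 and 3.70 in the rest, and its mean log2 fold changed sign, from 1.23 to -0.42, in the depth window.

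Components of WNT and hedgehog signalling were also higher. On the WNT and R-spondin list, 8 of 11 measured genes reached the fold, against 17.0% of all genes (median 1.86, depth window 0.75). The R-spondin receptor Lgr4 stood at 266, 230, 245 and 177 CPM in members and at 44.2, 40.0, 31.1 and 21.9 CPM in the rest (2.78 ± 0.26). The transcription factor Tcf7l2 (2.04 ± 0.17), the frizzled receptor Fzd2 (2.19 ± 0.67), the secreted inhibitor Sfrp1 (1.86 ± 0.52) and Znrf3, a ubiquitin ligase that removes WNT receptors (1.37 ± 0.19), were among them. All 5 measured hedgehog genes reached the fold, against 17.0% of all genes (median 1.95, depth window 1.05). They were the co-receptors Boc (2.37 ± 0.12) and Gas1 (1.75 ± 0.16), the transcription factors Gli2 (1.95 ± 0.29) and Gli3 (2.09 ± 0.39), and the signal transducer Smo (0.83 ± 0.20).

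Genes of the wound-activated and differentiating epidermis were low in the members. On the wound keratin and activation list, 8 of 9 genes were at least 1.5-fold lower in every pool, against 6.91% of all genes, and the median was -4.30 (depth window -3.21). Krt16, a keratin of activated epidermis, stood at 1269, 321, 401 and 674 CPM in members and at 10436.7, 11481, 11725 and 11720.4 CPM in the rest. Krt6a stood at 1294, 772, 578 and 744 CPM against 7275, 7724, 7267 and 7709, and Krt6b and Krt6a are near-identical, so that reads could be split between them. Sprr1b, a cornified envelope protein, had a log2 fold of -4.72 ± 0.75. Krt17 alone of the list did not reach the fold (-0.12 ± 0.51). Free RNA carried 6724 CPM of Krt6a, more than any pool of members.

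All 10 measured genes of suprabasal differentiation were at least 1.5-fold lower in every pool, against 6.91% of all genes (median -2.73, depth window -2.52). Krt1, the keratin of spinous cells, stood at 91.3, 145, 466 and 567 CPM in members and at 1611, 948, 2919 and 2313 CPM in the rest. Krt10, its partner, had a log2 fold of -2.76 ± 0.81 and Krtdap, a secreted protein of differentiating keratinocytes, -2.01 ± 0.15. On the inflammatory list 3 of 6 measured genes were lower, against 6.91% of all genes. They were S100a8 (-4.68 ± 0.56), S100a9 (-4.60 ± 0.54), which together form calprotectin, and the alarmin Il33 (-3.18 ± 0.55). The list's median was -2.88 (depth window -2.32).

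The 12 lowest genes were in part on these lists, while Spink5, Gsta4, Defb14, Hpgds, Lce3c and Pinlyp were on none. Spink5, a protease inhibitor of the outer epidermis, stood at 10.7, 7.98, 4.05 and 4.03 CPM in members and at 208, 195, 145 and 146 CPM in the rest (log2 fold -4.81 ± 0.44). Gsta4, a glutathione transferase, stood at 39.2, 57.9, 15.7 and 11.1 CPM against 698, 834, 438 and 409 (-4.50 ± 0.62). Defb14, an antimicrobial peptide, stood at 0.919, 3.33, 1.08 and 1.51 CPM in members, from 3 to 5 UMIs a pool, and at 135, 133, 51.3 and 48.3 CPM in the rest. Hpgds, a prostaglandin D synthase, was at 0 in the members at 3 days fl/fl, against 52.1 CPM in the rest. For its fold the count of 0 was set at 3 counts, which is 1.996 CPM in that pool. Cnfn, Lce3c, Pinlyp, S100a8, S100a9, Sprr1b, Sprr2d and Krt6b completed the 12, and all 12 stayed below 0 in the depth window.

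Both basal keratins were below the rest in each pool, whereas Trp63 and Dst were higher. Krt14 stood at 10423, 10156, 7931 and 13304 CPM in members and at 25779.8, 26683, 27697 and 30364 CPM in the rest, lower in each pool (-1.42 ± 0.27). Its partner Krt5 stood at 4425, 4263, 3749 and 4842 CPM against 5336, 5120, 5531 and 6043 (-0.35 ± 0.14). Trp63, the master regulator of stratified epithelium, was higher (1.2 ± 0.14), as was Dst, which links keratins to hemidesmosomes (1.52 ± 0.15). The median over all 13 basal genes was -0.01, with 2 higher and 1 lower, shares near the 17.0% and 6.91% of all genes. In the depth window that median was -0.37, Krt14 was at -1.18 and Krt5 at -0.41.

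Genes of the EGF list were divided. Of 12 measured, 4 were lower and 3 higher by the fold in every pool, against 6.91% and 17.0% of all genes. All 4 genes at least 1.5-fold lower in every pool were ligands: Areg, Ereg, Epgn and Hbegf. Epgn stood at 67.1, 72.5, 43.5 and 33.7 CPM in members and at 248, 239, 163 and 182 CPM in the rest (-1.98 ± 0.31), and Hbegf at 87.3, 71.2, 93.8 and 110.3 against 326, 307, 244 and 246 (-1.64 ± 0.44). Most of the Areg UMIs came from 1 cell in 3 of the 4 pools of members. The 3 higher genes, Errfi1 (0.75 ± 0.12), Spred1 (1.46 ± 0.37) and Spred2 (1.85 ± 0.35), encode inhibitors of the receptor or of the Ras pathway downstream. Egfr itself stood at 274, 248, 242 and 214 CPM against 153, 142, 160.3 and 157 (0.67 ± 0.19) and did not reach the fold in every pool. Over the 12 measured genes the median was -0.08 (depth window 0.01).

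Most genes of antigen presentation were higher, and a minority of those of sterol synthesis were lower. On the interferon and MHC list 7 of 8 genes reached the fold, against 17.0% of all genes (median 1.38, depth window 0.75). B2m, the shared chain of class I MHC, stood at 458, 467, 410.2 and 356 CPM in members and at 165, 157, 126 and 86.7 in the rest, and Psmb8, an immunoproteasome subunit, had a log2 fold of 2.43 ± 0.34. On the cholesterol list all 12 genes were below 0 (median -0.89, depth window -0.54) and 3 were at least 1.5-fold lower in every pool, against 6.91% of all genes: Sqle (-1.32 ± 0.24), Msmo1 (-1.12 ± 0.26) and Fdps (-1.01 ± 0.31). In the lipoprotein list Abca1, a cholesterol exporter, was higher (2.35 ± 0.24) and Fabp5, a fatty acid binding protein, lower (-3.43 ± 0.75), with a list median of 0.36 (depth window 0.07).

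The Notch list went both ways. On it the ligand Jag2 (1.91 ± 0.32) and the coactivator Maml2 (1.84 ± 0.14) were higher, and the receptor Notch2 (-0.84 ± 0.23) and the feedback gene Nrarp (-2.21 ± 0.50) lower, of 8 measured (median 0.48, depth window 0.07). Of all genes, 17.0% were higher and 6.91% lower. In the BMP and TGF-beta list 4 of 10 were higher, namely Bmp7, Id3, Bmpr2 and Bmpr1a, against 17.0% of all genes. However, the list's median of 0.38 became -0.07 in the depth window. The immediate early list had 3 of 17 higher (Egr2, Klf2 and Btg2), a share near the 17.0% of all genes, and its median of 0.39 became -0.08. The serine synthesis and ATF4 list had a median of -0.02. Of its 14 measured genes 1 was lower, Eif4ebp1, a brake on translation, a share near the 6.91% of all genes. None of 8 wound edge genes reached the fold (median -0.34, depth window -0.78), against 17.0% higher and 6.91% lower of all genes.

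No cell cycle gene reached the fold in every pool, of 11 for G1/S (median 0.21) and 16 for G2/M (median 0.13). Of all genes, 17.0% were higher and 6.91% lower. The log2 fold of Mki67 was 0.51 ± 0.62. Mki67, a marker of dividing cells, stood at 228, 307, 131 and 154 CPM in members and at 141, 125, 134 and 147 in the rest, so that the groups overlapped. Thinned to 5000 UMIs, it was detected in 28.2%, 50.9%, 23.3% and 23.7% of members and in 33.6%, 29.1%, 27.1% and 33.3% of the rest, a share higher in members in 1 pool, 3 days fl/fl. The unthinned shares were 43.0%, 66.0%, 32.8% and 37.6% against 62.4%, 58.7%, 56.8% and 65.7%. The G2/M median was 0.81 in the depth window.

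**Figure D3:**
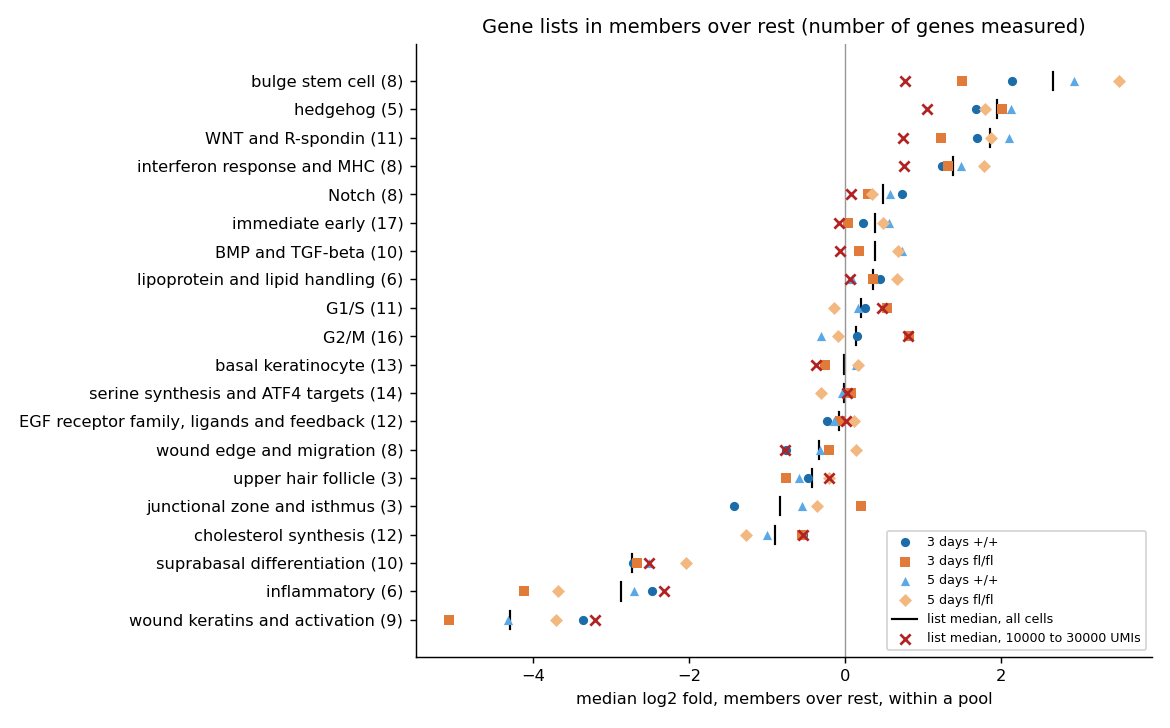
Median log2 fold of members over rest for 20 gene lists, with 1 symbol for each pool, a bar for the median over the pools' mean folds, and a cross for cells of 10000 to 30000 gene UMIs. The bulge, hedgehog, WNT and interferon medians lie above 0 and the wound keratin, inflammatory and suprabasal medians below 0 in each pool, and the crosses of the first 4 lie nearer to 0.

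None of the 29 marker genes of other cell types averaged 30 CPM over members and rest. Summed over its list, the fibroblast level ran from 2.52 to 3.33 CPM in members and from 0.519 to 1.26 in the rest, the endothelial level from 1.08 to 8.56 against 1.77 to 1.90, and the Merkel cell level from 1.01 to 15.3 against 7.60 to 13.2. The immune sum was higher in members in both +/+ pools, at 18.4 against 5.45 CPM at 3 days and 22.2 against 6.95 CPM at 5 days. In fl/fl it stood at 2.66 against 5.14 CPM at 3 days and 3.52 against 3.32 CPM at 5 days. Ptprc, Cd3e and Lyz2 were at 0 in members, so the sum there came from Cd74, Cd52, Tyrobp and Cd207, the other genes of the list. The melanocyte sum ran from 36.6 to 65.4 CPM in members against 12.9 to 30.5, higher in members in each pool, and most of it was Mitf. The fibroblast sum was also higher in members in each pool. The part of such cells in the results was not tested.

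The members were also sorted by their summed bulge genes, and a spread along that sum was fixed by the sorting. By the summed bulge list, 165 of the 470 members (35.1%) lay in the top 10% of all ranked wound cells. Between the 118 members with the highest and the 118 with the lowest bulge sum (limits 6167 and 1602 CPM, with 83 and 116 members within 0.5 log2 of each), the log2 fold was 1.55 ± 0.51 for Lgr6 and -0.47 ± 0.15 for Lrig1 (SD, n = 4 pools). The rule used the sum of both, so these values are a description. Krt14 was at -1.55 ± 0.23, Krt79 at -2.34 ± 1.78, Mki67 at -2.11 ± 1.49 and Apoe at 0.18 ± 0.49. The median depth was 13301.5 UMIs in the first and 25939 in the second group, and its part in these folds was not tested. Without the ranked cells in the top 10% by bulge genes, the members' Apoe fold over the rest was 3.03 and the WNT median 1.08, the bulge median was 2.69, and Cd34 changed sign from 1.23 to -0.37.

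Members with more Lrig1 than Lgr6 UMIs differed from those with more Lgr6 in bulge genes. Of 3061 genes that averaged 50 CPM or more, 12 (0.392%) were at least 1.5-fold higher and 47 (1.54%) lower in the Lrig1-led members in all 4 pools. On the bulge list 6 of 8 genes were lower. Krt24, a keratin of bulge cells, stood at 26.2, 7.43, 14.0 and 11.4 CPM in Lrig1-led and at 133, 55.6, 188 and 271 CPM in Lgr6-led members (-3.39 ± 0.98). Lhx2 (-2.12 ± 0.27), the chemokine Cxcl14 (-2.40 ± 0.16), the GDNF receptor Gfra1 (-2.61 ± 0.47), Shisa2, an inhibitor of WNT and FGF receptors (-2.72 ± 0.73), and Grem1, an inhibitor of BMPs (-2.30 ± 0.37), were lower too. Krt24 was detected in 4 of all 53 members at 3 days fl/fl, with 58.1% of its 31 UMIs from 1 cell. Over all members at 5 days fl/fl, 1 cell gave 31.0% of the Krt24, 34.3% of the Gfra1 and 38.1% of the Grem1 UMIs.

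On the other side, Ly6a, which encodes SCA1, stood at 149, 161, 181 and 156 CPM in Lrig1-led and at 58.2, 16.9, 28.4 and 30.3 CPM in Lgr6-led members (2.41 ± 0.79). SCA1 is a surface protein of the interfollicular epidermis and upper follicle, absent from the bulge. Ccl27a, a skin chemokine (2.26 ± 0.83), Clca3a2 (2.36 ± 1.31), Aldh3a1 (2.02 ± 0.91) and Ly6d (1.99 ± 0.45) were also higher in Lrig1-led members. Csta1, a cystatin, did not reach the fold in every pool (1.89 ± 1.94).

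Against the 202 Krt79 plus Defb6 high cells, the members had close levels of Apoe and lower Gata6. Of 2991 genes, 156 (5.22%) were at least 1.5-fold higher and 153 (5.12%) lower in members in all 4 pools. Apoe stood at 10733.5, 11293, 11087 and 10194.5 CPM in the Krt79 plus Defb6 high cells, beside 9227 to 11407 in members (log2 fold -0.09 ± 0.14). Lrig1 stood at 243, 324, 181 and 220.0 CPM there and Lgr6 at 38.95, 20.2, 24.6 and 14.9, a description, since the members were chosen on both genes. Gata6 was higher in the Krt79 plus Defb6 high cells (46.7, 72.1, 76.3 and 35.7 CPM at 5 days +/+, 3 days +/+, 3 days fl/fl and 5 days fl/fl) than in members. Its average over both classes was below the limit of 50 CPM for this comparison.

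Of 12 measured basal genes 9 were higher in members than in those cells, against 5.22% of all genes. All 9 measured suprabasal genes were lower, against 5.12% of all genes. On the bulge list 2 of 7 measured genes were higher and 1 lower (median 0.60), against 5.22% and 5.12% of all genes. On the interferon and MHC list 0 of 7 reached the fold in either direction (median 0.03), near the 5.22% higher and 5.12% lower of all genes. Krt77, a keratin of sweat ducts and epidermis (-6.72 ± 0.98), the kallikrein protease Klk7 (-6.67 ± 1.28), Cst6 (-6.27 ± 0.94), Ly6g6c (-5.50 ± 0.68), Spink5 (-4.59 ± 0.62) and Sdr16c6, a retinol dehydrogenase family member (-4.21 ± 0.53), were the lowest outside Krt79 (-5.925) and Defb6 (-5.81), which set these classes apart by the rule. All 4 measured hedgehog genes were higher, against 5.22% of all genes. Postn (2.84 ± 1.19), Cxcl14 (2.83 ± 0.32), Rflnb (3.09 ± 0.42), Enox1 (3.00 ± 0.94), the catenin-like Ctnnal1 (3.72 ± 1.92) and Cenpf, a kinetochore protein (3.13 ± 2.19), were the highest. The Krt79 plus Defb6 high cells of the fl/fl pools number 21 at 3 days and 29 at 5 days. They held 1 Ctnnal1 UMI at 3 days fl/fl and 3 Cenpf UMIs in each fl/fl pool. In the +/+ pairs at 3 and 5 days the log2 folds were 2.24 and 2.14 for Ctnnal1 and 1.09 and 1.39 for Cenpf.

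In unwounded skin the same limit was reached by 71 of 235 +/+ cells (30.2%, Clopper-Pearson 95% interval 24.4 to 36.5) and 93 of 534 fl/fl cells (17.4%, 14.3 to 20.9). Those pools were shallower, with median UMIs of 7455 and 7606, and their gate asks for CD34, so the shares are not compared with the wound pools. Lrig1 stood at 56.9 and 55.0 CPM and Lgr6 at 98.4 and 47.8 CPM in unwounded +/+ and fl/fl cells, while Apoe stood at 9971 and 9824 CPM, within the range of the members. Krt15 stood at 13279 and 14132 CPM there, above the 1470 to 2659 CPM of the members.

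Because the limit was set over the 4 pools together, the share of members in each pool could differ. Members were 135 of 1290 ranked cells at 3 days +/+ (10.5%, 95% interval 8.85 to 12.3), 53 of 496 at 3 days fl/fl (10.7%, 8.11 to 13.7), 189 of 1440 at 5 days +/+ (13.1%, 11.4 to 15.0) and 93 of 1469 at 5 days fl/fl (6.33%, 5.14 to 7.70). These intervals describe single pools, since cells are not replicates of a condition. At 5 days the shares in +/+ and fl/fl were 38.0% and 39.2% among cells of 10000 to 20000 UMIs, and 25.2% and 10.6% among cells of 20000 to 30000. Among cells of 10000 to 30000 UMIs the shares were 24.9%, 25%, 31.8% and 22.0%.

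Sex moved with these shares. A cell was called female when it held 2 or more Xist UMIs and no more than 1 Y-linked UMI, and of the wound pools only the +/+ held such cells. At 5 days +/+ they made up 46.6% of members and 17.9% of the rest, and at 3 days +/+ 37.8% and 29.9%. Among the other cells, members were 9.40%, 10.7%, 8.95% and 6.33% in the order of pools, and in the depth window 25%, 25%, 28.1% and 22.0%. Since the fl/fl wound pools held 0 female cells by this call, genotype and sex cannot be told apart in the whole pools.

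**Figure D4:**
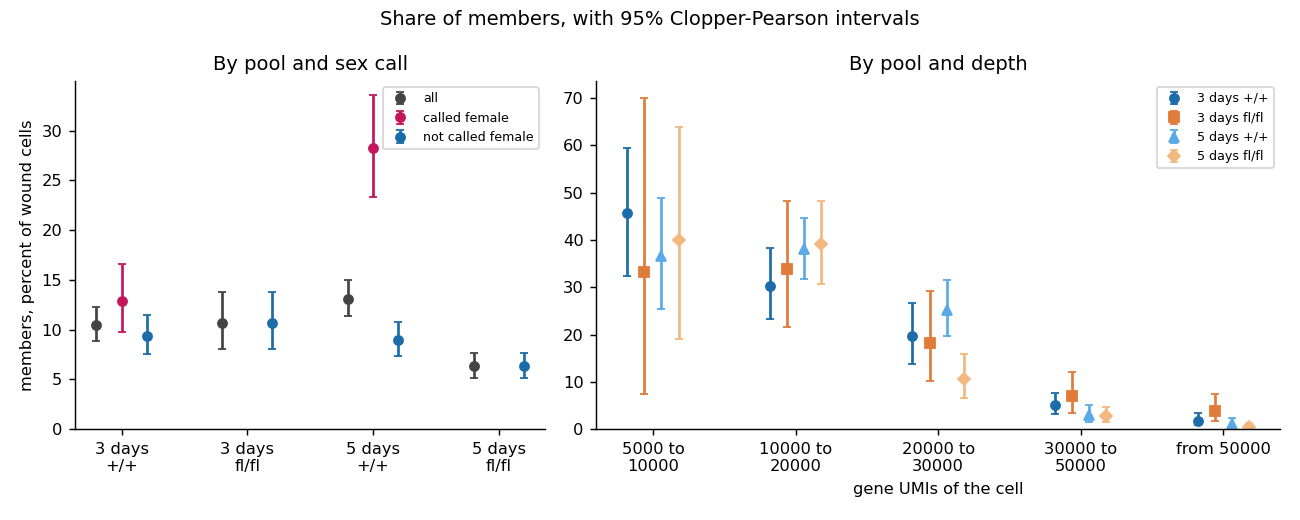
Share of members among ranked wound cells (percent, points, with Clopper-Pearson 95% intervals as bars), on the left by pool and sex call and on the right by pool and gene UMIs of the cell. The share in cells called female at 5 days +/+, 28.2%, lies above that of the other cells of the pool, 8.95%, and shares from 30000 UMIs lie below those under 30000 in each pool.

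From 3 to 5 days the members carried fewer division transcripts. Apoe had log2 folds of 0.16 in +/+ and 0.12 in fl/fl members, and Lrig1 and Lgr6, fixed in part by the choice, lay between -0.16 and 0.22. Of 3054 genes that averaged 50 CPM or more, 60 (1.96%) were at least 1.5-fold higher and 22 (0.720%) lower at 5 days in both genotypes. Mki67 had a log2 fold of -0.80 (95% interval -0.97 to -0.63) in +/+ and -0.997 (-1.21 to -0.79) in fl/fl members, and -0.07 and 0.24 in the rest. Cdc20, Tpx2 and Hmmr, which act in mitosis, were lower too, and all 13 measured G2/M genes were below 0 in members (median -0.62), against 4 of 12 in the rest (median 0.01). The difference between members and rest was not tested.

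Sox4, a transcription factor of progenitor cells, went from 63.1 to 198 CPM between 3 and 5 days in +/+ members and from 43.9 to 188 in fl/fl members, with log2 folds of 1.65 and 2.10 against 0.89 and 0.92 in the rest. Robo1, a Slit receptor, had log2 folds of 1.84 and 1.93 in members, beside 1.92 and 1.90 in the rest. Tspear, a secreted protein needed for hair and tooth formation, stood at 3.98 and 58.4 CPM in +/+ and at 5.99 and 163 CPM in fl/fl members (3.87 and 4.76), beside 1.58 and 2.63 in the rest. Ifi27l2a, an interferon response gene, had log2 folds of 1.24 and 2.51. Of the immediate early list 16 of 17 genes were above 0 and 4 reached the fold, against 1.96% of all genes: Junb, Jund, Egr2 and Klf2. Grem1 (-1.33 and -0.63) was lower in both genotypes, and Col23a1, a transmembrane collagen (-0.66 and -1.94), was under the fold in +/+ when its top cell was left out.

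Several day values rest on 1 cell. Of the Areg UMIs of members at 3 days, 72.3% (+/+) and 91.7% (fl/fl) came from 1 cell, and Areg fell from log2 folds of -1.89 and -2.04 to -0.36 and -0.28 without the top cell of each pool. Of the Krt10 UMIs at 5 days +/+, 80.1% came from 1 cell, and its folds of 2.51 and 1.28 became 0.49 and 1.92. Krt1, with 70.7% from 1 cell there, went from 2.35 to 0.94 in +/+ and from 1.97 to 2.30 in fl/fl. Mmp13, a collagenase, had 99.2% of its 253 UMIs at 3 days fl/fl from 1 cell, and Odc1, the first enzyme of polyamine synthesis, 88.2%. Without the member cell with the most UMIs, gene by gene, 78 genes were higher and 15 lower at 5 days, of which 57 and 13 were among the 60 and 22. Removing 1 cell takes more from a pool of 53 than from one of 189.

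Between genotypes, Phgdh was the check of the labels. It stood at 160 CPM at 3 days +/+, 13.3 at 3 days fl/fl, 150.2 at 5 days +/+ and 16.1 at 5 days fl/fl in members, with log2 folds of fl/fl over +/+ of -3.59 (95% interval -4.31 to -2.95) and -3.22 (-3.78 to -2.71). In the rest it stood at 114, 18.0, 137 and 21.8 CPM. Both fl/fl pools lay below both +/+ pools in each class. Where the floxed part lies relative to the 3′ reads was not given in the sources used here.

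Few other genes differed in both pairs. Of 3054 genes, 5 (0.164%) were at least 1.5-fold higher and 21 (0.688%) lower in fl/fl members at both days, and with members taken as the top 20% the counts were 1 and 4. Creb5, a transcription factor, stood at 122 CPM at 3 days +/+, 49.9 at 3 days fl/fl, 219 at 5 days +/+ and 87.6 at 5 days fl/fl (log2 folds -1.29 and -1.33, beside -0.25 and -0.34 in the rest). Ank, a membrane transporter of pyrophosphate, stood at 349.7, 142, 260.0 and 130 CPM in the same order (-1.30 and -1.001, beside -0.06 and -0.56). Both genes came from many cells, with at most 21.3% of UMIs from 1 cell.

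Of the bulge list, 2 of 8 genes were lower in fl/fl members, against 0.688% of all genes. They were Lgr5 (-0.90 and -1.29) and Lhx2 (-1.04 and -1.17), and 7 of 8 were below 0 (median -0.58). In the rest, where 2 bulge genes were measured, Lgr5 was at -0.63 and -1.64 and Lhx2 at -0.16 and -1.42. Lrig1 was at -0.15 and -0.29, Lgr6 at -0.34 and -0.72 and Apoe at -0.15 and -0.18 in members. All 13 G2/M genes were above 0 (median 0.51) and 0 reached the fold at both days, against 0.164% higher and 0.688% lower of all genes. Among the members not called female (84, 53, 101 and 93 cells by pool), the folds were -0.76 and -1.14 for Lgr5, -0.997 and -1.45 for Lhx2, -1.37 and -1.46 for Creb5 and -1.49 and -1.26 for Ank, whereas those of Lrig1 changed sign to 0.03 and 0.27.

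Of the 5 genes higher in fl/fl members at both days, 1 was still higher without the top cell of each pool. Mmp13 stood at 11.95 CPM at 3 days +/+, 168 at 3 days fl/fl, 6.22 at 5 days +/+ and 35.2 at 5 days fl/fl, and without the top cell its log2 folds of 3.82 and 2.50 became -2.27 and 4.07. The gene still higher was Tspear (0.59 and 1.48 with all cells, the first with an interval from -0.82 to 1.93), and Csta1 and Robo1 were no longer higher at 3 days. Odc1 (1.90 and 0.13) and Ccnb1, a mitotic cyclin (0.95 and 0.52), did not reach the fold at 5 days with all cells. The count of lower genes was 34 without the top cell and held all 21. Slpi, a protease inhibitor, had 82.6% of its UMIs at 5 days +/+ from 1 cell, and was at -1.96 and -4.54 with all cells. Gjb2, a gap junction protein, was at -3.09 and -0.76, beside 0.24 and 0.05 in the rest.

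**Figure D5:**
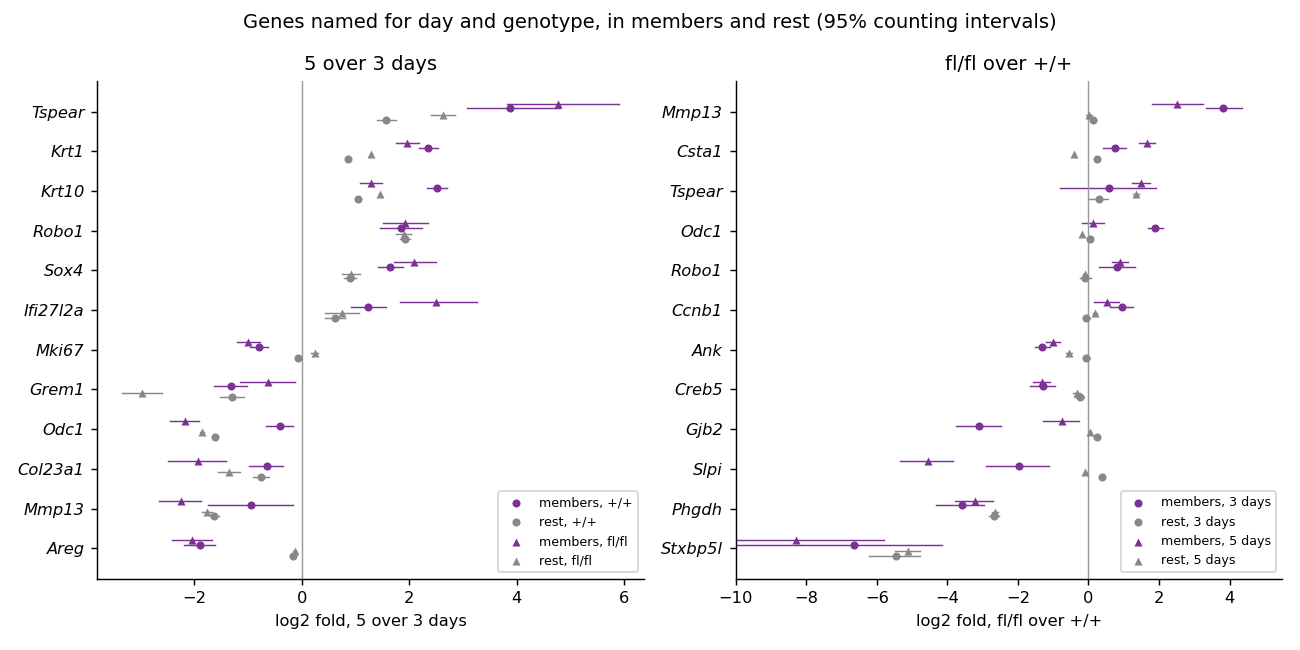
Log2 fold of the named genes for 5 over 3 days (left) and for fl/fl over +/+ (right), in members (purple) and rest (grey), with 95% counting intervals as lines, of which those of Stxbp5l are cut at -10. Mki67 lies below 0 in members of both genotypes and near 0 in the rest, and Phgdh lies below -2 in both classes at both days.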

How the data were processed

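Single-cell 3′ RNA and hashtag counts came from 1 capture of 6 pooled conditions. The deposited matrix holds UMI counts per gene or hashtag and barcode, made by the authors with Cell Ranger 7.1.0 against mm10, and Seurat 4.3.0 was also used, per the submitters' processing notes. The matrix lists 2997303 barcodes, and 741 of the 6407 that passed the depth and mitochondrial filters were without 1 hashtag. Cells of 2 hashtags were dropped by the 70% rule, doublets within a hashtag stayed, and no doublet caller was run. No barcode occurs in more than 1 library, as there is 1. Free RNA, read from 65043 barcodes with 100 to 400 UMIs, was not subtracted.

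UMIs were summed by pool and class and scaled to CPM (Python 3.11.15, numpy 2.4.6, scipy 1.17.1, pandas 2.3.3). Folds carry exact conditional binomial intervals and shares Clopper-Pearson intervals (95%), and a count of 0 was set at 3 counts. Genes needed a mean of 30 CPM (members over rest) or 50 CPM (other comparisons). A gene counts as higher or lower at 1.5-fold in every pool or pair, and no p-value was computed. Named genes were the 12 highest and 12 lowest folds over the rest and the 6 highest and 6 lowest elsewhere, with the same direction in each pool, without Lrig1, Lgr6, Krt79, Defb6 and mitochondrial, ribosomal, Gm-, Rik-named and sex-linked genes, and a set of markers named always. The members and the gene lists were chosen with earlier results of these data known. The fold code was tested on simulated data. Alternatives were other limits, rankings, filters, scalings and pools left out.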

Additional observations from a re-analysis of the deposited data

Results flagged for a closer look

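Among 59 sets of 4 pool values checked, 1 held a pool far from the other 3. The log2 fold of Apoe in members over rest was 3.255 at 5 days fl/fl, beside 2.70, 2.76 and 2.72 in the other pools, so that its gap to the nearest of them was 0.891 of the whole range. The level of Apoe in the rest was lowest in that pool (1052 CPM), while that of the members (10039.5 CPM) lay between those of the other pools. Chance flags about 1 in 20 such sets.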

How the results depend on the processing

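Every value here is a description, since no test was run, and intervals cover counting error alone. The count of genes higher in members was 360 when cells were ranked after thinning to 5000 UMIs, 465 with median-of-ratios size factors, 1775 with a limit of 5 CPM and 161 in cells of 10000 to 30000 UMIs, and that of lower genes was 117, 469, 556 and 137 in the same settings. The thinned ranking took 978 cells because of ties, of which 424 were members. Without 1 pool at a time the counts were 759 to 843 and 322 to 344. The Apoe log2 fold was 2.33 when cells were ranked by Lgr6 alone, 2.58 with at least 20000 UMIs, 2.06 after thinning, 2.45 with equal weight per cell and 1.48 at 10000 to 30000 UMIs, and 2.73 to 2.91 without 1 pool at a time. It stayed above 0 in each of these.

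Shares of members moved with the ranking and the depth. After thinning they were 21.8% at 3 days +/+, 20.4% at 3 days fl/fl, 24.7% at 5 days +/+ and 16.3% at 5 days fl/fl, and at 10000 to 30000 UMIs they were 24.9%, 25%, 31.8% and 22.0%. Without the top 10% by bulge genes they were 7.18% at 3 days +/+, 9.59% at 5 days +/+ and 4.57% at 5 days fl/fl. The share at 5 days +/+ was 10% when ranked within each pool and 10.9% without cells called female. That at 5 days fl/fl was 10.01% when ranked within each pool and 7.78% with 90% of hashtag UMIs on 1 hashtag, and that at 3 days fl/fl was 13.8% with at least 20000 UMIs.

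For 5 against 3 days, higher genes numbered 107 and lower genes 34 at 10000 to 30000 UMIs, and lower genes 37 without cells called female. With the +/+ pair alone the counts were 104 and 68, and with the fl/fl pair alone 235 and 184, since 1 pair has to pass instead of 2. For fl/fl against +/+, higher genes numbered 1 and lower genes 4 in the top 20%, 13 and 34 when ranked within each pool, and 1 and 34 without the top cell of each gene. At 10000 to 30000 UMIs 1 was higher. With 1 day alone the counts were 51 to 53 and 74 to 110. Lrig1-led against Lgr6-led members gave 17 to 27 higher and 45 to 66 lower genes without 1 pool at a time.

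Among list medians away from 0 and of 1 sign in every pool, 4 changed sign. Upper hair follicle became 0.067 with no limit on Krt79 and Defb6, and lipoprotein and lipid handling -0.019 when ranked by Lgr6 alone. At 10000 to 30000 UMIs, BMP and TGF-beta became -0.069 and immediate early -0.079. Medians near 0 were not counted, such as those of the EGF list (-0.08 to 0.011) and the serine and ATF4 list (-0.019 to 0.02) at that depth. The cause was not tested. The window of 10000 to 30000 UMIs, the choice without bulge-rich cells and the choice without the top cell were added after seeing the data. Ranking by Lgr6 alone for the top 20% or within each pool was not run, as its limit fell at 0. No paired analysis was possible because the labels give no replicate numbers and each condition is 1 pool, so this holds for days and genotypes, whereas folds of members over rest were taken within each pool.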

Other observations

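Stxbp5l, a syntaxin-binding protein, was the gene with the lowest fold of fl/fl over +/+ members, and its direction was the opposite in unwounded skin. Members held 216 UMIs at 3 days +/+, 1 at 3 days fl/fl, 584 at 5 days +/+ and 1 at 5 days fl/fl. The log2 folds were -6.64 (95% interval -11.95 to -4.14) and -8.29 (-13.60 to -5.81), and those of the rest were -5.45 and -5.12. In unwounded cells Stxbp5l stood at 13.5 CPM in +/+ and 34.7 CPM in fl/fl.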
